A study of Mus musculus with 4 samples.

Results

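The genes described are 48 genes of mitosis and the preceding G2 phase, taken as a list of symbols that covers the cyclins and kinases of mitotic entry, the kinetochore and its checkpoint, the spindle, condensin, cytokinesis and the machinery of anaphase. They were measured in induced regulatory T cells (iTreg cells), which are naive T cells turned towards the Treg state in culture. There were 4 libraries, 2 labelled MSC KO (MSC KO 1 and MSC KO 2) and 2 labelled WT (WT 1 and WT 2), where MSC is musculin, a transcription factor encoded by Msc. All 4 libraries came from naive T cells sorted from C57BL/6 mice and cultured for 3 days with TGF-beta at 2 ng/ml, the inducing cytokine, on plates coated with 1 µg/ml of anti-CD3/CD28, which stands in for antigen. The labels do not say how Msc was disrupted, how many mice were used, or whether replicates were separate cultures, so that p-values measure only the spread between these libraries, which may be technical. Levels were read as FPKM, a measure of fragments scaled by transcript length and by library size, and came in 2 tables, MSC KO 1 with WT 1 and MSC KO 2 with WT 2. Of 22144 symbols in both tables, 10603 averaged 1 FPKM or more over all libraries and were tested, and all 48 members were among them.

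A cell that has copied its DNA enters mitosis when Cdk1 joined to a B-type cyclin is switched on, condenses its chromosomes, attaches them by kinetochores to the spindle and separates them once the anaphase-promoting complex (APC/C) has marked securin and cyclin B for destruction. Most of these genes are transcribed in a wave late in the cell cycle, through a pair of promoter elements, the CCAAT box and the cell cycle genes homology region (CHR), whose common form is TTTGAA. In T cells the transcripts appear after activation, when the cells leave quiescence and divide, and are low in resting cells. In bulk RNA a smaller share of cells in G2 and mitosis and less RNA per such cell cannot be told apart.

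The labels and the make-up of the cells bear on how the comparison reads. Msc was at 0.331 and 0.939 FPKM in the MSC KO libraries, against 0.0243 and 0.0178 FPKM in WT. Its RNA was thus higher, not lower, under the MSC KO label. All these values lie under the filter of 1 FPKM, so Msc was not tested. Since the manner of disruption is not given, they cannot show whether the labels are right. MSC KO below therefore names the libraries labelled MSC KO, and every direction is that of the labels. Foxp3, which defines Treg cells, was at 2.97 and 7.05 FPKM in the MSC KO libraries, against 62.8 and 66 FPKM in WT, so that this defining marker of the labelled cell type was low in the libraries labelled MSC KO, and its part in the mitotic difference was not tested. None of the other iTreg markers was lower in MSC KO in both tables. Ctla4, an inhibitory receptor of Treg and activated T cells, was at 217 and 188 FPKM in the MSC KO libraries, against 112 and 120 FPKM in WT. Il2ra, the alpha chain of the interleukin-2 receptor, was at 364 and 307 FPKM in the MSC KO libraries, against 302 and 317 FPKM in WT, and Ikzf4 at 12.6 and 18 FPKM in the MSC KO libraries, against 16.9 and 17.2 FPKM in WT, both with overlapping groups. The 5 CD4 T cell markers found (of 6) summed to 768 to 806 FPKM in MSC KO and 702 to 731 FPKM in WT. That sum joins markers that did not move together. Cd3g and Cd5 were higher under the MSC KO label in both tables, whereas Cd3e and Cd28 were lower in both. Cd4 was lower in the first table and higher in the second. Markers of other cells were near 0, with sums of up to 1.39 FPKM in MSC KO and 1 FPKM in WT for B cells (4 of 4 found), and up to 0.75 FPKM in MSC KO and 0.57 FPKM in WT for myeloid cells (4 of 4). Mast cell and basophil markers (4 of 4) reached 0.118 FPKM in MSC KO and 0 in WT, with Cpa3, Ms4a2 and Fcer1a at 0 in every library. Erythroid markers (2 of 4) reached 0.345 FPKM in MSC KO and 0.39 FPKM in WT, and NK markers (2 of 2) 0.0688 FPKM in MSC KO and 0 in WT, with Ncr1 at 0 throughout. Cd8a was at 0.571 and 0.658 FPKM in the MSC KO libraries, against 1.58 and 1.9 FPKM in WT, and Cd8b1 at 8.56 and 19.1 FPKM in the MSC KO libraries, against 9.75 and 9.75 FPKM in WT; their part in any result was not tested.

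RefSeq promoter windows (GRCm38.p6, 250 bases before to 50 after each start) were found by symbol for 41 of the 48 members. Ccna2, Cdc25c, Aurkb, Incenp, Kif20a, Tpx2 and Smc4 had no window. TTTGAA, read on both strands (as TTTGAA or TTCAAA), was present in 29 of the 41 (70.7%), against 20.2% of 27025 genes with a window and 13.9% of the 7509 tested genes with one. CCAAT, read as CCAAT or ATTGG, was present in 31 of the 41 (75.6%), against 41.1% of all genes with a window and 43.4% of the tested ones. Both motifs were present in 26 members (63.4%), against 7.97% of all genes and 5.98% of tested genes. Neither motif contains the other, no matches printed here overlap, and a match is a run of letters, not a shown binding site. Below are 150 bases before and 30 after the start, 5′ to 3′ on the strand of the gene, with matches in capitals, for Cdc20, Ube2c, Cdk1 and Ccnb2 as examples with both motifs, for Nusap1 as the member with the largest difference between the labels, and for Pttg1 as the member that was higher in both MSC KO-labelled libraries.
Cdc20 (chr4:118437314-118437493, minus strand): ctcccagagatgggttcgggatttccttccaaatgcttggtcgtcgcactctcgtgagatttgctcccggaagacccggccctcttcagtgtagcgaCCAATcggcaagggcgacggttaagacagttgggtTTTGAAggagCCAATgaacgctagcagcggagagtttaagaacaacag
Ube2c (chr2:164769779-164769958, plus strand): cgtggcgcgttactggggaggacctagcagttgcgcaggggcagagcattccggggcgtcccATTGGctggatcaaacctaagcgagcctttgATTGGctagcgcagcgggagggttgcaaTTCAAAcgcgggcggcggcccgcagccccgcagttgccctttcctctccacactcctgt
Cdk1 (chr10:69352883-69353062, minus strand): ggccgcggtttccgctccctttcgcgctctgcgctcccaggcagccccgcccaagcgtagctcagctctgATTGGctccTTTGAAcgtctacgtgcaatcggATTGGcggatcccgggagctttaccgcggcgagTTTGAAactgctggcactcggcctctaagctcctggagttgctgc
Ccnb2 (chr9:70421525-70421704, minus strand): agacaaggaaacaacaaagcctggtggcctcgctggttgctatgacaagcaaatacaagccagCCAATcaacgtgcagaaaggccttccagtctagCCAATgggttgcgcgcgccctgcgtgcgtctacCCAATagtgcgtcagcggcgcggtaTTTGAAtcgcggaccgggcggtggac
Nusap1 (chr2:119618148-119618327, plus strand): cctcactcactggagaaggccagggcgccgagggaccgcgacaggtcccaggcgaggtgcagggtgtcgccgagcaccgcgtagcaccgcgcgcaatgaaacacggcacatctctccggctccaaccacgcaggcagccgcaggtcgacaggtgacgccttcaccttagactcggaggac
Pttg1 (chr11:43425952-43426131, minus strand): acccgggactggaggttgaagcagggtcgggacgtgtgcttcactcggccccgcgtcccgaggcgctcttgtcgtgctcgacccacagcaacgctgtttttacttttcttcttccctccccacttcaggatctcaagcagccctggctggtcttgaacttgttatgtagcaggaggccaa
In Cdc20 the TTTGAA run began 18 bases before the start and lay between 2 CCAAT matches, and in Cdk1 there were 2 TTTGAA and 2 CCAAT matches. Ccnb2 held 3 CCAAT matches followed by TTTGAA just past the start. Nusap1 and Pttg1 held neither motif in these windows. The other matched members with neither were Plk4, Mad2l1, Birc5, Nuf2 and Ncaph. Members with TTTGAA had a median difference between the labels of -0.30 on the log2 scale described next (n = 29), and those without it -0.35 (n = 12).

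Nearly every mitotic transcript was at a lower level in the MSC KO-labelled libraries than in the WT libraries, by amounts that did not pass the test gene by gene. Of the 48 members 44 were lower in MSC KO in both tables (91.7%, against 37.5% of all genes tested), 1 was higher in both, Pttg1 (against 31.2% of all genes tested), and 3 went in opposite directions, Cdc25c, Cenpe and Cenpf. The median ratio of MSC KO to WT was 0.782 (first table) and 0.816 (second table), against 0.997 and 0.968 over all genes tested. Summed over the members, the level was 2465 and 2557 FPKM in MSC KO 1 and 2, against 3107 and 3163 FPKM in WT 1 and 2. That sum was 0.298% and 0.312% of the FPKM of all tested genes in the MSC KO libraries, against 0.389% and 0.394% in the WT libraries. Whether the tables were scaled together is not stated, so the differences between labels were taken within a table. Statements on overlap, on the spread between libraries of one label, and on fits with no table block or with a library left out set levels across tables and carry that limit. With it, both MSC KO libraries lay below both WT libraries for 43 members (89.6%, against 32.5% of all genes tested).

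On the log2(FPKM + 1) scale the median difference, MSC KO minus WT, was -0.34 (first table), -0.29 (second table) and -0.32 (mean of both), where all tested genes had medians of 0, -0.04 and -0.02. Set against each other over the 48 members, which share their libraries, the 2 differences gave 0.583 as Pearson's r and 0.503 as Spearman's rho, as a description. None of the 48 passed limma with the table as a block at an adjusted p of 0.05. Their adjusted p-values, by Benjamini-Hochberg over all 10603 genes, ran from 0.141 to 0.935, and in that fit 1 gene of all (0.00943%) passed, the small RNA Rnu73b. With no table block 0 of the 48 passed too, against 0.707% of all genes that passed as lower, and leaving out small RNA symbols gave 0 of the 48, against 0.0956%. At an unadjusted p under 0.05 by limma, 29 members (60.4%) were lower and 0 higher, against 11.2% of all genes that were lower and 9.2% that were higher by that rule. The authors' deposited tables, which test 1 library against 1, gave no member a p-value under 0.05 (0 of 48) and a lowest q-value of 0.999, while 0.634% and 0.558% of tested genes had a q-value under 0.05 in the first and the second of the authors' deposited tables. The member with the lowest p in the authors' deposited tables was Nusap1, at 0.0985 and 0.111.

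Leaving out either MSC KO library changed how many members passed limma. Without MSC KO 1, 23 members passed as lower (12.2% of all genes did), and without MSC KO 2, 35 did (13.1% of all genes), with 0 passing as higher in either case (9.49% of all genes did without MSC KO 1 and 12.1% without MSC KO 2). Without WT 1, 0 members passed as lower (0% of all genes did), and without WT 2, 0 members did (0.00943% of all genes). Each of these fits had no table block, so set levels across tables, and took the lone library to vary like the other label's libraries. The WT libraries lay close together, with a median absolute difference of 0.06 over the members, and the MSC KO libraries lay 0.12 apart, on the log2(FPKM + 1) scale across tables.

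**Figure D1:**
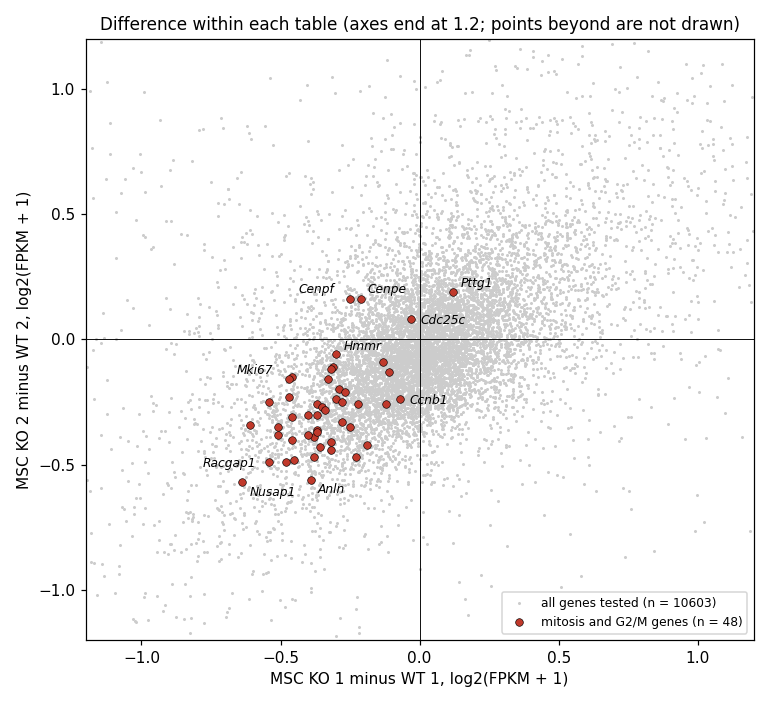
Difference of MSC KO minus WT on the log2(FPKM + 1) scale in the first table (x axis) and the second (y axis), for the 48 members (red) and all 10603 genes tested (grey; points beyond the axes are not drawn). Of the members 44 lie in the lower left, where MSC KO is lower in both tables, Pttg1 lies in the upper right, and Cdc25c, Cenpe and Cenpf lie in the upper left.

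The members of mitotic entry are the cyclins, their kinase Cdk1 and the Cdc25 phosphatases that switch it on. Cyclin A2 (Ccna2) was at 105 and 101 FPKM in MSC KO 1 and 2, against 131 and 135 FPKM in WT 1 and 2. Ccnb2, a B-type cyclin (chromosome 9, mm9, 70255495 to 70269361), was at 96.2 and 96.3 FPKM in the MSC KO libraries, against 135 and 135 FPKM in WT. It had the largest difference of the entry genes, with MSC KO below WT in both tables and ratios of 0.715 and 0.712 (-0.48 ± 0.09, log2 difference ± SE; adjusted p = 0.152, limma). Ccnb1, the other mitotic B-type cyclin (chromosome 13, mm9, 101548693 to 101556441), was at 80.2 and 75.1 FPKM in the MSC KO libraries, against 84.2 and 88.7 FPKM in WT. Its difference was -0.07 with replicate 1 and -0.24 with replicate 2 (mean -0.15 ± 0.10, adjusted p = 0.455, limma). Cdk1 (chromosome 10, mm9, 68799382 to 68815660) was at 64.5 and 68.3 FPKM in the MSC KO libraries, against 79 and 78.5 FPKM in WT (-0.24 ± 0.09, adjusted p = 0.277, limma). The groups did not overlap for any of these 4 genes, with MSC KO below WT in each, as in 32.5% of all genes tested.

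The Cdc25 phosphatases remove the inhibitory phosphates from Cdk1. Cdc25b was at 35 and 33.4 FPKM in the MSC KO libraries, against 45.8 and 46.6 FPKM in WT (-0.42 ± 0.09, adjusted p = 0.175, limma). Cdc25c was at 12.7 and 14.7 FPKM in the MSC KO libraries, against 13 and 13.8 FPKM in WT, and its groups overlapped (0.03 ± 0.09, adjusted p = 0.894, limma). Ratios of a pair of genes within a library do not depend on scaling between libraries. The groups did not overlap in 5 of the 8 pairs computed, and they overlapped for Cdk1 over Ccnb1, Nuf2 over Ndc80 and Bub1b over Bub3. No share over other gene pairs was computed, so the count is only a description. Pairs were chosen after the values were seen, and with 2 libraries against 2 an exact two-sided permutation test cannot go below p = 0.333. Ccnb2 over Ccnb1 was 1.2 and 1.28 in MSC KO, against 1.6 and 1.52 in WT, and Cdc25c over Cdc25b was 0.362 and 0.438 in MSC KO, against 0.283 and 0.296 in WT. In neither pair did the groups overlap, which shows unequal differences within the pair and not which gene was steady.

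**Figure D2:**
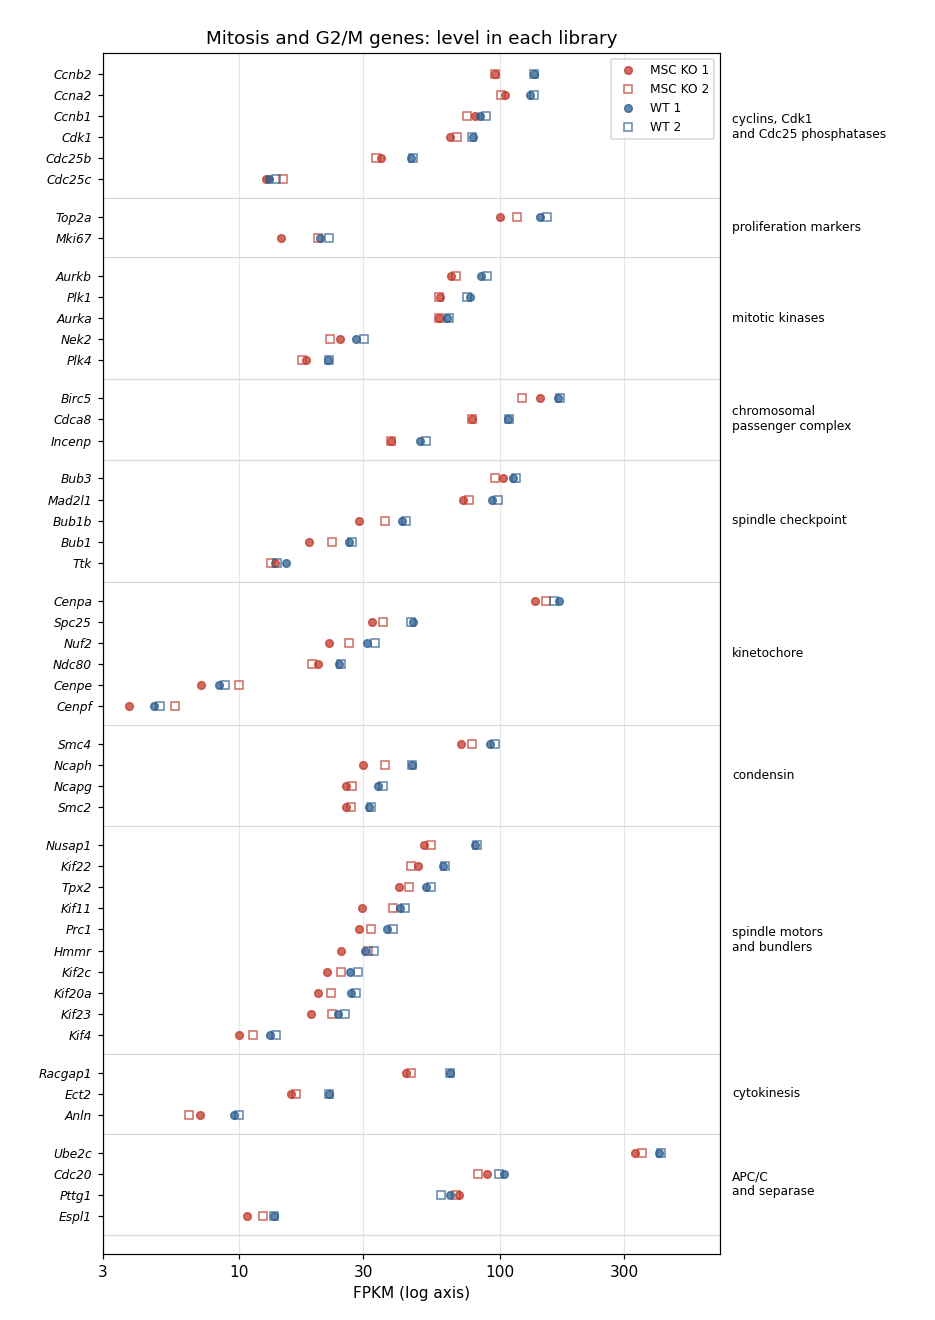
FPKM (log axis) of each of the 48 members in MSC KO 1 and 2 (red) and WT 1 and 2 (blue), grouped by role and ordered by the WT mean. In 43 rows both red symbols lie left of both blue ones. Pttg1 is the row with both on the right, and Cdc25c, Cenpe, Cenpf and Hmmr are the rows in which red and blue interleave.

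Ki-67 and topoisomerase II alpha are the usual markers of dividing cells. Mki67 (chromosome 7, mm9, 142881470 to 142908062) was at 14.5 and 20 FPKM in the MSC KO libraries, against 20.4 and 22.2 FPKM in WT, without overlap. The ratio was 0.713 with replicate 1 and 0.899 with replicate 2, so that the pairs differed in size though not in direction (-0.30 ± 0.12, adjusted p = 0.295, limma). Top2a, which untangles DNA strands (chromosome 11, mm9, 98854259 to 98885522), was at 100 and 117 FPKM in the MSC KO libraries, against 143 and 152 FPKM in WT, without overlap (-0.45 ± 0.09, adjusted p = 0.174, limma).

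The 5 mitotic kinases were all lower in both tables (as were 37.5% of all genes tested), with differences from -0.39 to -0.12. Plk1, which drives entry, spindle assembly and exit, was at 59.2 and 58.3 FPKM in the MSC KO libraries, against 76.9 and 75.2 FPKM in WT (-0.37 ± 0.09, adjusted p = 0.189, limma). Aurkb, the kinase of the chromosomal passenger complex, was at 64.8 and 67.8 FPKM in the MSC KO libraries, against 84.7 and 89.3 FPKM in WT (-0.39 ± 0.09, adjusted p = 0.18, limma). Aurka, its relative at the spindle poles, was at 58.3 and 58.3 FPKM in the MSC KO libraries, against 63 and 63.9 FPKM in WT (-0.12 ± 0.09, adjusted p = 0.503, limma). Aurka over Aurkb was 0.899 and 0.86 in MSC KO, against 0.744 and 0.715 in WT, without overlap. Plk4, the kinase of centriole copying, and Nek2, which helps to split the centrosomes, had mean differences of -0.30 and -0.31.

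Aurkb works with 3 further members, the scaffold Incenp, survivin (Birc5) and borealin (Cdca8), which place it on centromeres and later on the midzone. Cdca8 was at 78.5 and 78 FPKM in the MSC KO libraries, against 108 and 109 FPKM in WT (-0.47 ± 0.09, adjusted p = 0.154, limma). Birc5 was at 143 and 122 FPKM in the MSC KO libraries, against 168 and 170 FPKM in WT (-0.35 ± 0.11, adjusted p = 0.23, limma). Incenp was at 38.3 and 38.4 FPKM in the MSC KO libraries, against 49.6 and 52.2 FPKM in WT. The RNA of all 4 subunits of the complex, Aurkb included, was thus lower in both tables, as were 37.5% of all genes tested. Mean differences lay between -0.47 and -0.35, and none passed limma.

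The spindle checkpoint holds anaphase back until every kinetochore is attached. Its 5 genes were lower in both tables (as were 37.5% of all genes tested), with non-overlapping groups (as in 32.5%). Bub1b, which encodes BubR1, an inhibitor of the APC/C, was at 28.8 and 36.4 FPKM in the MSC KO libraries, against 42.3 and 43.6 FPKM in WT (-0.40 ± 0.12, adjusted p = 0.225, limma). Mad2l1, a further inhibitor of Cdc20, had ratios of 0.773 and 0.771. Bub3, which carries Bub1 and BubR1 to kinetochores, was at 103 and 95.6 FPKM in the MSC KO libraries, against 112 and 115 FPKM in WT (-0.19 ± 0.10, adjusted p = 0.357, limma). Ttk, the kinase that starts the signal, showed the smallest difference of the 5, with 13.7 and 13.2 FPKM in the MSC KO libraries, against 15.1 and 14 FPKM in WT (-0.11 ± 0.09, adjusted p = 0.527, limma). Bub1 had ratios of 0.709 and 0.844.

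Of the 6 kinetochore genes 4 were lower in both tables, as were 37.5% of all genes tested, and 2 were not. The centromeric histone Cenpa was at 136 and 150 FPKM in the MSC KO libraries, against 169 and 162 FPKM in WT. The Ndc80 complex binds microtubules, and the RNA of its subunits among the members was lower in both tables. Its subunit Spc25 was at 32.3 and 35.7 FPKM in the MSC KO libraries, against 46.5 and 45.7 FPKM in WT (-0.43 ± 0.10, adjusted p = 0.184, limma), and Ndc80 and Nuf2 had mean differences of -0.30 and -0.39. The large outer kinetochore proteins went in opposite directions in the tables. Cenpe, a kinesin that moves chromosomes to the plate, was at 7.11 and 10 FPKM in the MSC KO libraries, against 8.4 and 8.84 FPKM in WT, which is -0.21 and 0.16 (mean -0.02 ± 0.14, adjusted p = 0.935, limma). Cenpf (chromosome 1, mm9, 191464492 to 191511965) was at 3.79 and 5.68 FPKM in the MSC KO libraries, against 4.7 and 4.97 FPKM in WT, with -0.25 and 0.16 (mean -0.05 ± 0.15, adjusted p = 0.889, limma). In both genes MSC KO 1 was the lowest library and MSC KO 2 the highest.

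Cenpf and Cenpe are among the longest transcripts of the list (11130 and 7910 bp, longest transcript in GENCODE M21, matched by name). The difference between the MSC KO libraries, which is across tables, moved with that length. It need not be the length of the transcript that was quantified. Mad2l1 has 7557 bp by this rule, more than its mm9 locus spans (66485461 to 66490985), so the grouping by length is approximate. Among the 16 members of 4015 to 11130 bp, 14 were higher in MSC KO 2 than in MSC KO 1, with a median difference between those libraries of 0.13. Among the 16 of 1531 to 3227 bp, 8 were, with a median of -0.01. Across the 48 members, which share their libraries and are not replicates, Spearman's rho with length was 0.41 for MSC KO 2 minus MSC KO 1 and 0.33 for WT 2 minus WT 1, against 0.17 and 0.13 over 9512 tested genes with a length. The mean of both tables had a rho of 0.00 with length over the members. Adjusting each table's differences for length, an alternative chosen after seeing the data, left the median at -0.28 with 44 members lower in both tables. It put Cenpe at 0.02. RNA quality is not given in the labels, and its part in the length pattern was not tested.

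**Figure D3:**
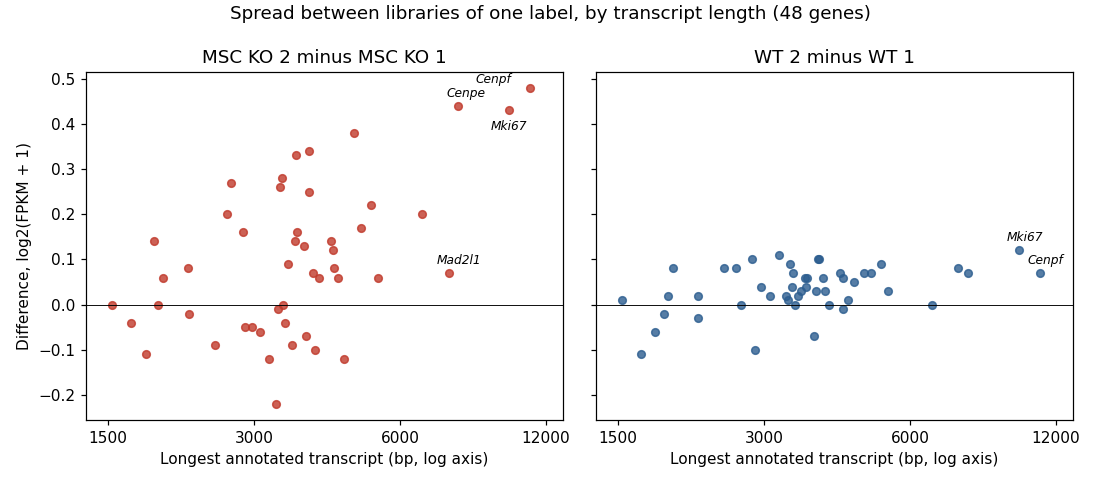
Difference between the libraries of one label on the log2(FPKM + 1) scale against the longest annotated transcript (bp, log axis) for the 48 members, MSC KO 2 minus MSC KO 1 on the left and WT 2 minus WT 1 on the right. The points of the left panel spread more widely and reach their highest values at the longest transcripts, Cenpf, Mki67 and Cenpe.

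Condensin folds chromosomes into rods before they separate. All 4 measured condensin members were lower in both tables, as were 37.5% of all genes tested. Ncaph, a subunit of condensin I, was at 29.9 and 36.2 FPKM in the MSC KO libraries, against 46.1 and 46.2 FPKM in WT (-0.48 ± 0.11, adjusted p = 0.188, limma). Smc2, a core ATPase, was at 25.6 and 26.8 FPKM in the MSC KO libraries, against 31.4 and 32.1 FPKM in WT (-0.27 ± 0.09, adjusted p = 0.246, limma). Its partner Smc4 and the subunit Ncapg had mean differences of -0.33 and -0.39.

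The 10 genes of spindle motors and bundlers were lower in both tables (as were 37.5% of all genes tested), and 9 of them without overlap (as in 32.5%). Nusap1, which bundles microtubules around chromosomes (chromosome 2, mm9, 119435267 to 119476997), was at 51.4 and 54.6 FPKM in the MSC KO libraries, against 80.7 and 81.6 FPKM in WT. That was the largest difference of all members, with ratios of 0.638 and 0.669 (-0.60 ± 0.09, adjusted p = 0.141, limma). Hmmr, which helps to focus spindle poles, was at 24.5 and 31.3 FPKM in the MSC KO libraries, against 30.4 and 32.8 FPKM in WT, and overlapped (-0.18 ± 0.11, adjusted p = 0.425, limma). Kif11, the kinesin that pushes spindle poles apart, was at 29.6 and 38.8 FPKM in the MSC KO libraries, against 41.5 and 43.4 FPKM in WT. The other kinesins (Kif20a, Kif23, Kif2c, Kif4 and Kif22), the midzone bundler Prc1 and Tpx2, which activates Aurora A, had mean differences from -0.38 to -0.24.

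The 3 cytokinesis genes had the largest median difference of the roles with at least 3 members, -0.48. Racgap1, part of the centralspindlin complex that marks the cleavage plane, was at 43.8 and 45.6 FPKM in the MSC KO libraries, against 64.3 and 64.6 FPKM in WT (-0.52 ± 0.09, adjusted p = 0.152, limma). Ect2, the activator of the contractile ring that it recruits, was at 15.8 and 16.5 FPKM in the MSC KO libraries, against 22.1 and 22.1 FPKM in WT (-0.43 ± 0.09, adjusted p = 0.169, limma). Anillin (Anln), a scaffold of that ring, was at 7.05 and 6.41 FPKM in the MSC KO libraries, against 9.55 and 9.95 FPKM in WT. The MSC KO libraries were below both WT libraries in all 3, as in 32.5% of all genes tested.

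Anaphase is started when Cdc20 turns on the APC/C, Ube2c supplies ubiquitin to it, securin (Pttg1) is destroyed and separase (Espl1) is freed. Ube2c, the most abundant member, was at 331 and 350 FPKM in the MSC KO libraries, against 409 and 414 FPKM in WT (-0.27 ± 0.08, adjusted p = 0.228, limma). Cdc20 was at 89.5 and 82.8 FPKM in the MSC KO libraries, against 104 and 99.7 FPKM in WT (-0.24 ± 0.09, adjusted p = 0.27, limma). Pttg1 (chromosome 11, mm9, 43233749 to 43239750) was at 70 and 67.9 FPKM in the MSC KO libraries, against 64.4 and 59.5 FPKM in WT. It was the only one of the 48 members with both MSC KO libraries above both WT libraries, which 26.6% of all genes tested were (0.15 ± 0.09, adjusted p = 0.421, limma; ratios 1.09 and 1.14). Espl1 was at 10.7 and 12.4 FPKM in the MSC KO libraries, against 13.6 and 13.6 FPKM in WT. Securin over separase was thus 6.53 and 5.47 in MSC KO, against 4.73 and 4.38 in WT, without overlap.

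Depth, estimated from the smallest step between low FPKM values, was 28100000 and 32000000 fragments in MSC KO 1 and 2, and 25500000 and 34300000 in WT 1 and 2. On that estimate, with the longest GENCODE M21 transcript as the length, the lowest count of a member in a library was about 870 fragments, for Cdc25c. At that count, counting alone gives a log2 ratio an SE of 0.069. Where the longest transcript exceeds the one quantified, the count is too high and the SE too low. Transcripts of 12 members share exon bases with a gene on the other strand in GENCODE M21, among them Kif20a (34.6% of its longest transcript, with Cdc23), Ube2c (27%, with Tnnc2) and Cdc25c (23.7%, with Gm3550). Strand-specific counting is not stated in the sources used here, so reads of those partners cannot be told apart and the levels of these members are uncertain to that extent.

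Other genes of the division cycle, in lists outside the 48, were described beside them by the same counts. No gene of any of these lists passed limma in either direction, and every list median lay below the -0.02 of all genes tested. Over all genes tested, 37.5% were lower and 31.2% higher in both tables. Of 46 tested genes among 50 others of mitosis, 41 were lower and 1 (Zwint, 0.24) higher in both tables (median -0.29). The largest difference there was in Cdca3, a trigger of mitotic entry, at 51.4 and 55.5 FPKM in the MSC KO libraries, against 99.4 and 97.6 FPKM in WT (-0.87 ± 0.10, adjusted p = 0.121, limma). Stil, which is needed for centriole copying, was at 5 and 5.14 FPKM in the MSC KO libraries, against 8.63 and 8.67 FPKM in WT. Of 13 further condensin and cohesin genes 11 were lower and 0 higher in both tables (median -0.24). Ncapd2, the condensin I partner of Ncaph, was at 45.6 and 48.9 FPKM in the MSC KO libraries, against 85.9 and 87 FPKM in WT (-0.86 ± 0.09, adjusted p = 0.12, limma).

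Of 15 APC/C subunits and regulators 10 were lower (66.7%, against 37.5% of tested genes) and 1 (Anapc11, 0.13) higher in both tables (median -0.18). Fbxo5, which encodes the APC/C inhibitor Emi1, was at 26.9 and 24.6 FPKM in the MSC KO libraries, against 35.2 and 36.1 FPKM in WT. Of 7 tested genes of the mitotic entry switch (9 listed) 4 were lower and 1 (Ensa, 0.18) higher in both tables (median -0.12). The 4 lower genes are 57.1% of a short list, against 37.5% of tested genes. Wee1, the kinase that holds Cdk1 off, was at 7.61 and 7.81 FPKM in the MSC KO libraries, against 11.6 and 11.2 FPKM in WT. It lay below WT as its opponent Cdc25b did. Ensa, an inhibitor of the phosphatase that opposes Cdk1, was at 45.8 and 49.8 FPKM in the MSC KO libraries, against 42.1 and 42.1 FPKM in WT.

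Transcription factors that drive or curb the late wave include the MuvB core, B-Myb, FoxM1 and the E2F and Rb families. Of 16 tested in that list 11 were lower (68.8%, against 37.5% of tested genes) and 1 (Rbl2, 0.24) higher in both tables (median -0.20). The repressors E2f8 (6.41 and 5.67 FPKM in the MSC KO libraries, against 11.1 and 10.3 FPKM in WT) and E2f7 (1.37 and 1.51 FPKM in the MSC KO libraries, against 2.65 and 2.44 FPKM in WT) had the most negative differences of the list (-0.73 and -0.54). Mybl2, which encodes B-Myb, was at 16 and 10.9 FPKM in the MSC KO libraries, against 15.6 and 16.2 FPKM in WT, and went in opposite directions in the tables. Foxm1 had no row of its own. The row that names it jointly with 4933413G19Rik was at 14.1 and 17.1 FPKM in the MSC KO libraries, against 20.4 and 21.3 FPKM in WT. Mybl2, that row and the genes named as higher in these lists were chosen after their values were seen.

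Upstream of mitosis, 35 of 41 DNA replication genes were lower (85.4%, against 37.5% of tested genes) and 2 (Orc1, 0.51, and Prim2, 0.03) higher in both tables. The medians of that list were -0.21 and -0.31 in the tables, beside -0.34 and -0.29 for the mitotic members. Mcm7, a subunit of the replicative helicase, was at 101 and 97.3 FPKM in the MSC KO libraries, against 134 and 141 FPKM in WT. Of 13 tested G1 cyclins, kinases and CDK inhibitors (16 listed) 7 were lower and 2 (Cdkn1a and Cdkn1b) higher in both tables (median -0.16). The 7 lower genes are 53.8% of a short list, against 37.5% of tested genes. The other 4 went in opposite directions in the tables, among them Cdkn2d, whose mean difference of 0.31 was the most positive of the list. The largest difference was in Cdkn2c, an inhibitor of Cdk4 and Cdk6, at 5.53 and 7.66 FPKM in the MSC KO libraries, against 18 and 20 FPKM in WT (-1.41 ± 0.11, adjusted p = 0.114, limma). The inhibitor Cdkn1a (p21) was at 256 and 230 FPKM in the MSC KO libraries, against 199 and 211 FPKM in WT, and Cdkn1b (p27) at 48.2 and 39.3 FPKM in the MSC KO libraries, against 40.3 and 37.6 FPKM in WT. Neither passed (adjusted p = 0.313 and 0.461, limma), and both were chosen after their values were seen.

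**Figure D4:**
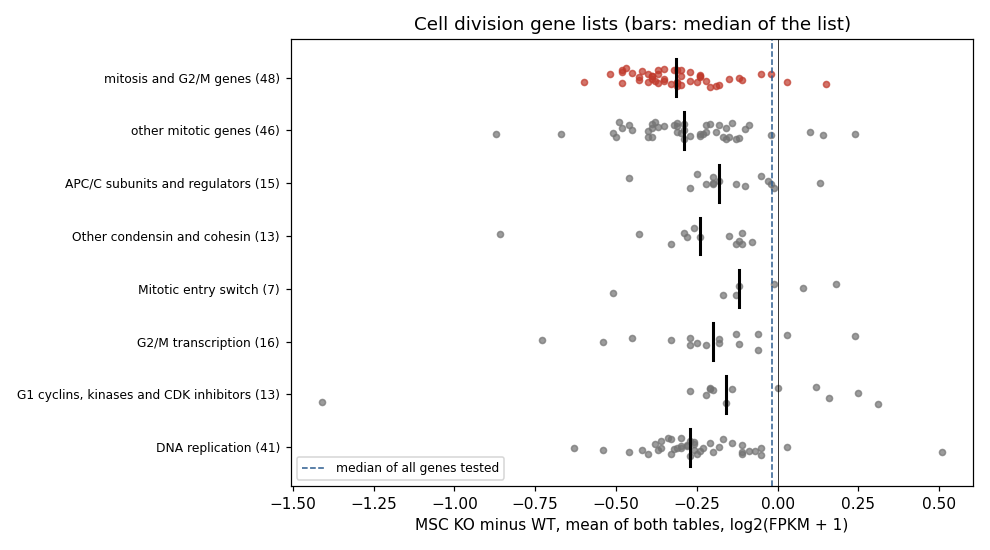
Difference of MSC KO minus WT (mean of both tables, log2(FPKM + 1) scale) for each tested gene of the 48 members (red) and of 7 further lists of the cell cycle (grey), with the median of each list as a black bar. Each bar lies left of the dashed median of all genes tested (-0.02), from -0.32 for the mitosis and G2/M genes to -0.12 for the mitotic entry switch.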

How the data were processed

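RNA of 4 libraries, 2 labelled MSC KO and 2 labelled WT, was sequenced after a TruSeq RNA preparation, per the labels' protocols. Reads were aligned with TopHat to mm9, per the submitters' processing notes. The sources used here name no version, gene annotation or quantifier. The authors deposited 2 tables of FPKM values, MSC KO 1 with WT 1 and MSC KO 2 with WT 2, each with their own p-values and q-values, per the file headers. The unit is not named and was read from the layout, which is that of Cuffdiff.

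Rows with no symbol were left out (1925 and 2325 of 24366 and 24752, holding 54.1% and 53.2% of the summed FPKM in MSC KO 1 and 2 and 49.9% and 52.2% in WT 1 and 2). Of repeated symbols the row with the highest mean was kept. Of 22153 symbols in both tables, 3 at loci that did not overlap and 6 with a failed estimate were dropped. Genes with a mean of at least 1 FPKM were tested as log2(FPKM + 1) by limma 3.58.1 under R 4.3.3, two-sided, with a term for the table (the block) and eBayes with a trend, adjusted by Benjamini-Hochberg over all 10603 genes. Degrees of freedom were 2.36 (prior) and 1 (residual). The pseudocount of 1 shrinks differences of genes at low FPKM. Positions are those the tables list, in mm9. Depth came from the smallest step between low FPKM values of genes with 1 transcript over 2500 bp (32 to 55 genes a library), so it is an estimate. On it, the MSC KO libraries differed by 18.5 times the variance of counting and the WT libraries by 2.55 times, so neither pair agreed within counting noise as a library deposited again would. This does not show separate samples, since repeat preparations and tables scaled apart can also differ. Python 3.11.15 and pandas 2.3.3 prepared the tables.

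The members, lists, roles and tests were chosen with earlier results of these data known. In full are given a fixed set of main members and the members with the most negative and most positive difference in each role. Genes of each other list were ranked by the smaller of their 2 table differences, same sign in both. Only some of the first 3 are printed, and not always the first, as Rpa1 and Chaf1b ranked above Mcm7. Alternatives covered the block, pseudocount, filter, scaling, small RNA symbols, prior, each library left out and transcript length.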

Additional observations from a re-analysis of the deposited data

How the results depend on the processing

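The median difference of the members, -0.32, ran from -0.28 (adjusted for transcript length, a setting chosen after seeing the data) to -0.35 (libraries rescaled to the same sum) over the settings that kept all 4 libraries, and from -0.37 to -0.26 over those that left out a library. Members lower in both tables numbered 44 under each setting that kept all libraries. Changing the block, prior, pseudocount, filter or small RNA symbols cannot turn the sign of a difference within a table. Only the scaling and length settings could do so, and the other settings are no check of that count. Under the filter of 5 FPKM, 47 members were tested. A count over both tables could not be made with a library left out. No member passed under any setting with all 4 libraries, with a lowest adjusted p of 0.0523 with no replicate block and of 0.0881 with small RNA symbols left out (limma). Genes called among all tested, 1 in the main design, numbered 153 with no replicate block, 26 with small RNA symbols left out, 7 with libraries rescaled to the same sum, 3 with a mean of at least 5 FPKM, and 0 with no filter on low values, quantile normalization or a prior without trend. With a library left out they ranged from 0 to 2672. Cdc25c turned to -0.01 under the common sum, and ran from -0.07 (without MSC KO 2) to 0.12 (without MSC KO 1) when a library was left out, with -0.02 without WT 1. Cenpe turned to 0.02 adjusted for length, and ran from -0.25 (without MSC KO 2) to 0.20 (without MSC KO 1), with 0.01 without WT 2. Cenpf ran from -0.29 (without MSC KO 2) to 0.19 (without MSC KO 1). The cause was not tested. Same-numbered libraries share a number and a table, and the labels tie them by nothing else. Their deviations from the group means correlated at 0.06 over all tested genes and at 0.41 over the 48 members, and the count of calls was 1 with the block and 153 with no replicate block.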
